A study of Mus musculus with 10 samples.

Results

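Eosinophils are granulocytes that develop in bone marrow under interleukin-5 and carry granules filled with cationic proteins. The genes described here are 9 that mark this cell: 6 code for granule proteins and their relatives (Epx, Prg2, Prg3, Ear1, Ear2 and Ear6), and 3 code for receptors (Siglecf, Ccr3 and Il5ra). They were chosen by name, as genes known for their use in eosinophils, and all 9 are among the 54532 genes measured. Expression was measured in whole spleens of 5 DUSP6 KO mice, homozygous for the Dusp6tm1Jmol allele, and of 5 WT C57BL/6J mice. All 10 young adult mice had KRN serum-induced arthritis (KSIA): each received 100 µL of serum from 60-day-old arthritic KRN x NOD offspring into the peritoneum on days 0 and 2, and spleens were taken on day 9. No mouse without serum is among the samples, so the values describe the arthritic spleen, and both lines were bought, so the genotype and the origin of the line cannot be told apart. In the labels the mutants appear as a knockdown, and the sex of each mouse is not given.

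The granule of the eosinophil holds major basic protein, made from Prg2, its homologue from Prg3, the peroxidase Epx and small ribonucleases, the eosinophil-associated ribonucleases or Ear proteins. At the surface sit CCR3, the receptor for the eotaxins that draw eosinophils into tissue, SIGLEC-F, an inhibitory lectin widely used to sort mouse eosinophils, and the interleukin-5 receptor alpha chain, Il5ra, which gives the cytokine its specificity and signals with the common beta chain Csf2rb. Few eosinophils live in the spleen, and several of these genes are also used elsewhere: Il5ra by B-1 cells and some antibody-secreting cells, Ear2 by non-classical monocytes, and Siglecf by alveolar macrophages. In whole tissue, fewer cells of a type and less RNA per cell cannot be told apart.

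The 3 Ear genes lie on chromosome 14 and are close copies of each other, so their sequences are shown first: how alike they are sets how far their values can be read as separate. The first 90 coding bases of each, read from the GENCODE transcripts (GRCm38), are printed with capitals where a base differs from Ear2. Ear1 differs from Ear2 at 2 of these bases and Ear6 at 10.
Ear2: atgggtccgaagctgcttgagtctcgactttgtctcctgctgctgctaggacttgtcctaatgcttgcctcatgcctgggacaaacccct
Ear1: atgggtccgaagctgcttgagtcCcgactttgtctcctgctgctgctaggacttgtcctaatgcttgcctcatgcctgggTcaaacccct
Ear6: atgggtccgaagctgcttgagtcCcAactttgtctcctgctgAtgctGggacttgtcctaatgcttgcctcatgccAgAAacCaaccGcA

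Over the whole coding sequence, Ear1 and Ear2 were identical at 448 of 471 aligned positions (95.1%), whereas Ear6 was identical to Ear1 at 87.4% and to Ear2 at 87.7%. Of all stretches of 50 bases in the transcripts, 57.4% of those of Ear1 and 41.5% of those of Ear2 also occurred in another gene, among them each other, Ear10 and the pseudogenes Ear-ps2 and Ear-ps9. For Ear6 the share was 0.954%. Stretches of 100 bases were shared for 23.9% of Ear1 and 13.9% of Ear2, and for none of the other 7 genes. How reads that match several genes were counted is not stated, so the split between Ear1 and Ear2 is uncertain, and Ear1 also shares 17 exon bases with Ear-ps9, which overlaps it on the same strand. Epx, Prg2, Prg3 and Ccr3 shared no stretch of either length and no exon base.

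The likeness of Ear1 and Ear2 extends to the DNA before the start that RefSeq gives. These 250 bases (GRCm38.p6) were available for 8 of the 9 genes, and those of the 3 Ear genes are shown because the genes with the most similar upstream DNA, Ear1 and Ear2, were listed at unlike levels, as far as the split of their reads can be relied on. Capitals mark bases that differ from Ear2 or are inserted relative to it.
Ear2: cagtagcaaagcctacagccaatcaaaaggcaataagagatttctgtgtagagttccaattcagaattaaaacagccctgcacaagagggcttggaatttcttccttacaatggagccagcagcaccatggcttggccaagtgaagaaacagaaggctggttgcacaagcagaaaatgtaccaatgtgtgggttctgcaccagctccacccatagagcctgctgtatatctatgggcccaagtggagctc
Ear1: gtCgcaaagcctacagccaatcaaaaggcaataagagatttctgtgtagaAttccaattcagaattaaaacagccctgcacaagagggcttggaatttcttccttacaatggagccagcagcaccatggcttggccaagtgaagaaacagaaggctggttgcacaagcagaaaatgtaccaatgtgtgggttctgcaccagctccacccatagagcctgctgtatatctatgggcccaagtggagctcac
Ear6: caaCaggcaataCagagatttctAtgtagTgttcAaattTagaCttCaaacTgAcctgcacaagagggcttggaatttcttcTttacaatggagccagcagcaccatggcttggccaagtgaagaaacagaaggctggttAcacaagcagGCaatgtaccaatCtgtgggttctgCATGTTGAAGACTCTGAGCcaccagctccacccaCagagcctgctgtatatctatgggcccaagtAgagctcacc

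The Ear1 sequence covers chr14:43819640-43819889 on the minus strand, the Ear2 sequence chr14:44102404-44102653 and the Ear6 sequence chr14:51853518-51853767, both on the plus strand. The gene as annotated for the counts can start elsewhere: Ear1, at chr14:43818765-43875517, holds its whole window, and Ear6 starts inside its window at position 51853699, while Ear2 starts right after its own. Ear1 and Ear2 were identical at 246 of 248 aligned positions (99.2%), and Ear6 was identical to Ear1 at 85.1% and to Ear2 at 85.4%, with a run of inserted bases that neither of the others holds.

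Values are FPKM, fragments scaled by gene length and library depth, which can be compared between genes. The 10 libraries held 14990474 to 19822673 reads, with no difference between the groups beyond their spread (medians 17298955 in DUSP6 KO and 16201982 in WT, two-sided exact permutation test, p = 0.60, where 5 against 5 allow no p below 0.0079). Dusp6, the targeted gene, was at 0.308 to 0.624 FPKM in the DUSP6 KO spleens and at 16.6 to 24.0 FPKM in WT. Of genes that mark the tissue, the spleen homeobox gene Tlx1 (9.84 to 25.0 FPKM) and the red pulp macrophage factor Spic (21.1 to 35.1 FPKM) were present in every library. Haemoglobin RNA varied most: Hba-a1 was lowest in DUSP6 KO 21, which had 8580.1 FPKM, and highest in DUSP6 KO 73, which had 41139.5 FPKM.

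By level, Ear2 and Prg2 had the highest mean FPKM, followed by Ccr3 and Prg3, and then by Il5ra, Ear1, Ear6, Epx and Siglecf. Ccr3 was above Prg3 in 10 of 10 spleens and Prg3 above Il5ra in 10 of 10. The ranges of Ccr3 and Prg3 did not overlap, whereas the lowest Prg3 (5.06 FPKM) was under the highest Il5ra (6.21 FPKM). The ranges of the other neighbours overlapped too, and their order was not the same in every spleen: Ear2 exceeded Prg2 in 8 of 10 spleens, Prg2 exceeded Ccr3 in 9, Il5ra exceeded Ear1 in 6, Ear1 exceeded Ear6 in 9, Ear6 exceeded Epx in 5 and Epx exceeded Siglecf in 9.

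**Figure D1:**
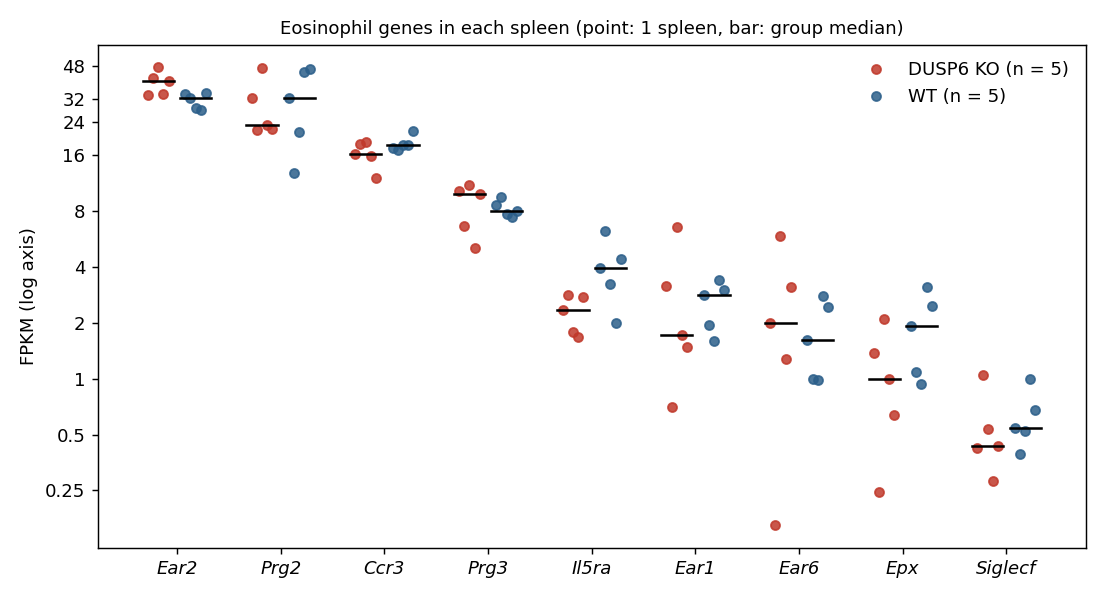
FPKM (log axis) of the 9 eosinophil genes in each of 5 DUSP6 KO spleens (red) and 5 WT spleens (blue), with black bars at the group medians. The groups overlap for all 9 genes, and Ear1, Ear6 and Epx spread most between spleens, with the lowest point of each in the same DUSP6 KO spleen.

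None of the 9 genes differed between DUSP6 KO and WT at an adjusted p of 0.05 (limma on log2(FPKM + 0.1), Benjamini-Hochberg over 21296 genes). Over all genes tested, 15 were called, a share of 0.0704% (0.0376% higher and 0.0329% lower in DUSP6 KO). With no adjustment, 1 member had a p under 0.05 and a higher level in DUSP6 KO (Ear2, where 2.62% of all genes were) and 1 was lower (Il5ra, where 3.03% were), 2 of 9 together beside 5.66% of all genes. For no member were the 5 DUSP6 KO values all above or all below the 5 WT values, which held for 1.11% of all genes. All 9 passed the minimum mean of 0.1 FPKM, with 2 log2 fold changes above 0 and 7 below, and their median was -0.20, beside -0.0046 over all genes (10445 above 0 and 10851 below). Fold changes on this scale understate the difference for genes near 0.1 FPKM.

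**Figure D2:**
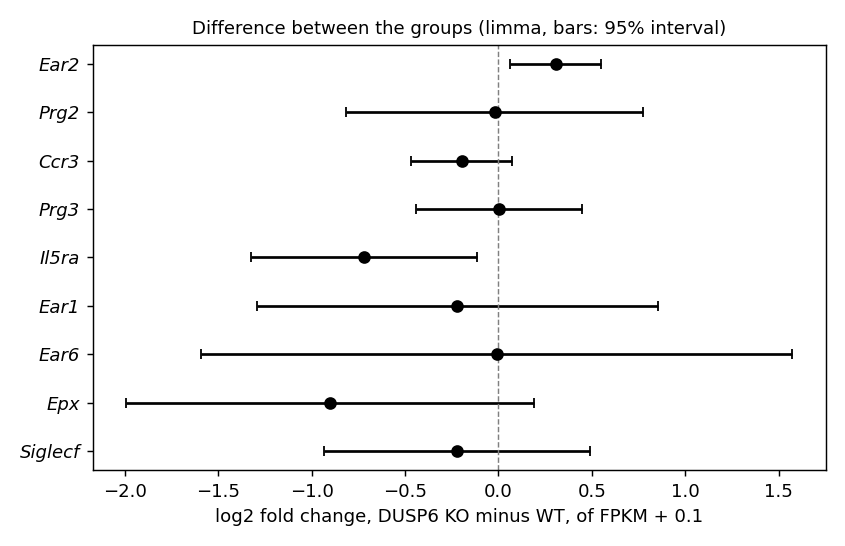
Log2 fold change of FPKM + 0.1, DUSP6 KO minus WT, of the 9 eosinophil genes, with 95% intervals from limma. The interval lies above 0 for Ear2 and below 0 for Il5ra, both before adjustment, and spans 0 for the other 7 genes, most widely for Ear6.

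Among the granule genes, Prg2 measured 32.4, 21.8, 47.2, 23.1 and 22.1 FPKM in the DUSP6 KO spleens, which carry the numbers 26, 21, 73, 01 and 03. The WT spleens, numbered 65, 67, 73, 77 and 83, measured 32.4, 12.8, 21.2, 44.4 and 46.3 FPKM. Both groups had high and low spleens, and the means of 29.3 ± 10.9 and 31.4 ± 14.5 FPKM (SD, n = 5 each) were within that spread (log2 fold change -0.02, SE 0.36, adjusted p = 1.0). The 95% interval, from -0.81 to 0.77, covers a difference in either direction. Between spleens Prg2 varied 3.69-fold, on 205 to 695 reads.

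Prg3, whose gene (chr2:84988215-84993886) lies just beyond that of Prg2 (chr2:84980461-84983632) on the same strand, was steadier. In the same order it measured 10.2, 6.67, 11.0, 5.06 and 9.91 FPKM in the mutants and 8.57, 9.55, 7.70, 7.42 and 7.94 FPKM in WT. The WT values lay within the DUSP6 KO range (log2 fold change 0.0047, SE 0.20, adjusted p = 1.0). Although the genes are neighbours and homologues, no correlation of Prg2 and Prg3 was detected over the 10 spleens (Pearson r = 0.14, Spearman rho = 0.25; permutation p = 0.69 and 0.49, adjusted p = 0.93 for r over the 36 pairs of members).

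Epx, the peroxidase and the gene most particular to eosinophils, was low and uneven. DUSP6 KO spleens had 1.37, 0.244, 2.09, 0.995 and 0.639 FPKM, and WT spleens had 1.92, 1.09, 0.932, 3.12 and 2.45 FPKM. The highest 2 values were in WT and the lowest 2 in DUSP6 KO, with the rest interleaved. The means were 1.07 ± 0.71 and 1.90 ± 0.92 FPKM (log2 fold change -0.90, SE 0.49, 95% interval -1.99 to 0.19, adjusted p = 0.94, two-sided exact permutation p = 0.15). It did not pass the test, and it was -0.52 without DUSP6 KO 21. It rested on 13 to 142 reads per library, and the coefficient of variation was 66.4% in DUSP6 KO and 48.3% in WT, where counting alone gives about 11.9%, so most of the spread was between spleens.

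The ribonuclease Ear2 measured 33.5, 41.4, 47.3, 34.0 and 39.8 FPKM in the mutants and 33.9, 32.6, 28.6, 27.9 and 34.5 FPKM in WT. DUSP6 KO spleens 21, 73 and 03 stood above all WT spleens, and 26 and 01 fell among them. The log2 fold change was 0.31 (SE 0.11, 95% interval 0.06 to 0.55, unadjusted p = 0.018, adjusted p = 0.75; two-sided exact permutation p = 0.040). Ear1 was far lower, at 3.16, 0.705, 6.54, 1.71 and 1.49 FPKM in the mutants and 2.80, 1.94, 1.59, 3.38 and 2.98 FPKM in WT (log2 fold change -0.22, SE 0.49, adjusted p = 0.99). DUSP6 KO held both the lowest and the highest value, on 10 and 70 reads. The ratio of Ear2 to Ear1 ran from 7.22 in DUSP6 KO 73 to 58.8 in DUSP6 KO 21, with a median of 14.5.

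Ear6 had the widest spread of the 9. It measured 1.98, 0.163, 5.85, 1.27 and 3.13 FPKM in the mutants and 1.61, 0.998, 0.982, 2.80 and 2.42 FPKM in WT (log2 fold change -0.01, SE 0.72, adjusted p = 1.0). The lowest value, in DUSP6 KO 21, was 3 reads and the highest, in DUSP6 KO 73, was 81 reads, and the sign of the fold change turned with the pseudocount. Summed over the Ear genes of the lists, the libraries held 391 to 650 reads, and the log2 fold change was 0.29 (SE 0.13, unadjusted p = 0.049, adjusted p = 0.88). The sum takes out the split of counted reads among those genes, but not with the pseudogenes. It does not restore reads left uncounted for matching several genes, and whether any were is not stated. Ear2 made up most of that sum. The other Ear genes on the list gave next to nothing: 4 of 9 names were in the table, Ear10, Rnase2a and Rnase2b had at most 3 reads in any library, and Ear14 was listed at 0 throughout.

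Of the receptors, Il5ra measured 2.34, 2.81, 1.78, 1.67 and 2.75 FPKM in the mutants and 3.96, 6.21, 3.23, 2.00 and 4.39 FPKM in WT. WT spleens 65, 67, 73 and 83 were above all DUSP6 KO spleens, and WT 77 was among them. The means were 2.27 ± 0.53 and 3.96 ± 1.55 FPKM (log2 fold change -0.72, SE 0.27, 95% interval -1.32 to -0.11, unadjusted p = 0.024, adjusted p = 0.79; two-sided exact permutation p = 0.040). The fit on all genes did not call it.

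Ccr3 measured 16.1, 18.4, 18.8, 15.8 and 12.0 FPKM in the mutants and 17.5, 17.1, 18.2, 18.1 and 21.5 FPKM in WT. It was the best-measured of the 9, with 654 to 1259 reads, and the second steadiest, with a spread of 1.78-fold between spleens. DUSP6 KO 03 was the lowest and WT 83 the highest (log2 fold change -0.20, SE 0.12, 95% interval -0.47 to 0.07, adjusted p = 0.95). Siglecf was the least abundant, at 0.423, 1.05, 0.538, 0.281 and 0.432 FPKM in the mutants and 0.545, 0.394, 0.520, 0.992 and 0.680 FPKM in WT (log2 fold change -0.22, SE 0.32, adjusted p = 0.99). Its highest value was in DUSP6 KO 21, the spleen with the lowest Epx, Ear1 and Ear6.

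Whether the 9 genes varied together from mouse to mouse was read from their correlations. Of the 36 pairs, 24 had a Pearson r above 0 over the 10 spleens, and 1 pair passed an adjusted p of 0.05. That pair was Ear1 and Epx (r = 0.88, permutation p = 0.0012, adjusted p = 0.043; rho = 0.92). The r was 0.90 without the 2 spleens farthest from the median of Ear1, 0.94 with each group's mean subtracted, and 0.77 without DUSP6 KO 21, where the pair was no longer called. Ear6 had r = 0.85 with Ear1 (rho = 0.64; permutation p = 0.0031, adjusted p = 0.055) and 0.74 with Epx (rho = 0.58; permutation p = 0.016, adjusted p = 0.18), and these were 0.41 and 0.34 without the 2 spleens farthest from the median, DUSP6 KO 21 and 73. Among the 5 WT spleens alone, too few for a test, they were 0.95 and 0.99. Prg2 had r = 0.71 with Ear1 and 0.69 with Epx (rho = 0.78 and 0.79; permutation p = 0.021 and 0.026, adjusted p = 0.18 and 0.19), and these were 0.82 and 0.86 without the 2 farthest.

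**Figure D3:**
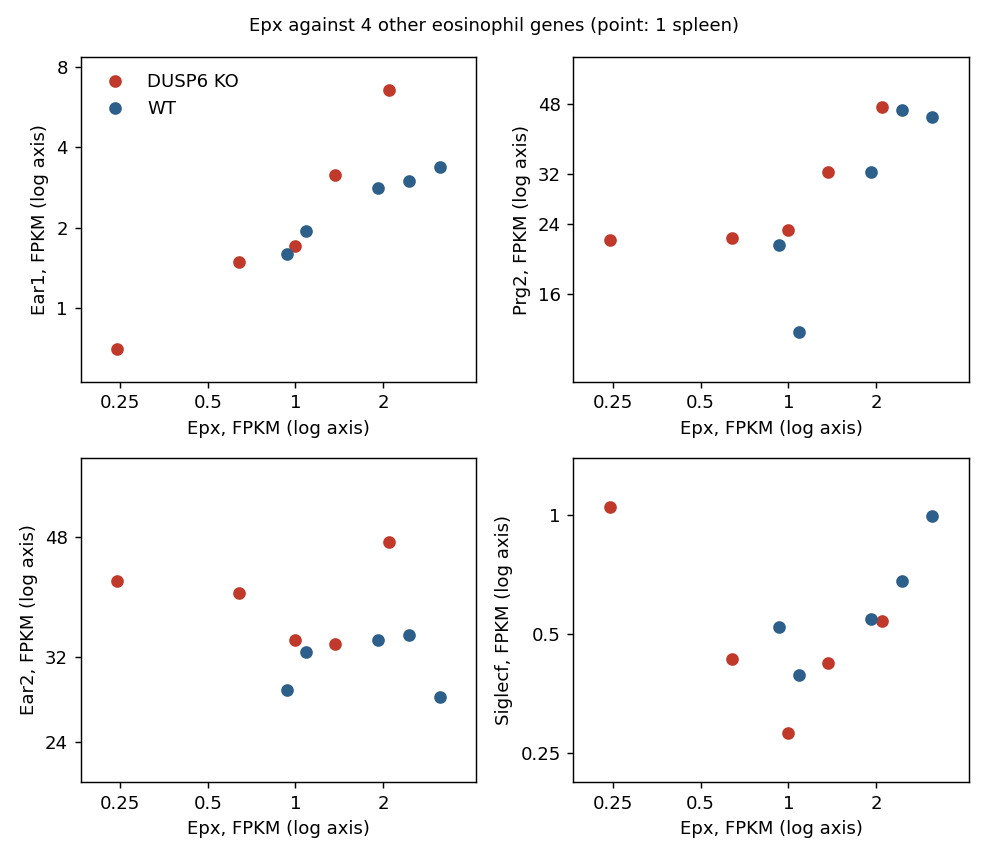
FPKM of Ear1, Prg2, Ear2 and Siglecf (log axes) against Epx in the 10 spleens, with DUSP6 KO in red and WT in blue. Spleens with more Epx mostly have more Ear1 and Prg2 (r = 0.88 and 0.69), and no such pattern is seen for Ear2 (r = -0.33) or Siglecf (r = 0.02).

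Values of r with Epx were lower for the other genes, among them the granule gene Prg3 (r = 0.25, rho = 0.21, permutation p = 0.49, adjusted p = 0.88). Ccr3 had r = 0.40 (rho = 0.38, permutation p = 0.25, adjusted p = 0.71), and Ear2 had r = -0.33, Siglecf r = 0.02 and Il5ra r = -0.05 (rho = -0.25, 0.26 and -0.05; permutation p = 0.36, 0.96 and 0.90, adjusted p of at least 0.88). Ear1 and Ear2, the pair with the nearest sequence, had r = 0.06 (rho = -0.15; permutation p = 0.87, adjusted p = 0.97). Among the genes with the highest r with Epx, the ratio of Ear1 to Epx ran from 1.72 to 3.12 in the mutants and from 1.08 to 1.78 in WT, with means of 2.47 ± 0.55 and 1.45 ± 0.30 (two-sided exact permutation p = 0.016). For Prg2 over Epx the ratio ran from 22.6 to 89.2 in the mutants and from 11.7 to 22.8 in WT, ranges that overlap only at their edge (two-sided exact permutation p = 0.016). These ratios were chosen after the values were seen, among 5 computed, and the lowest Epx reads behind them, 13 and 29, were in DUSP6 KO 21 and 03.

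**Figure D4:**
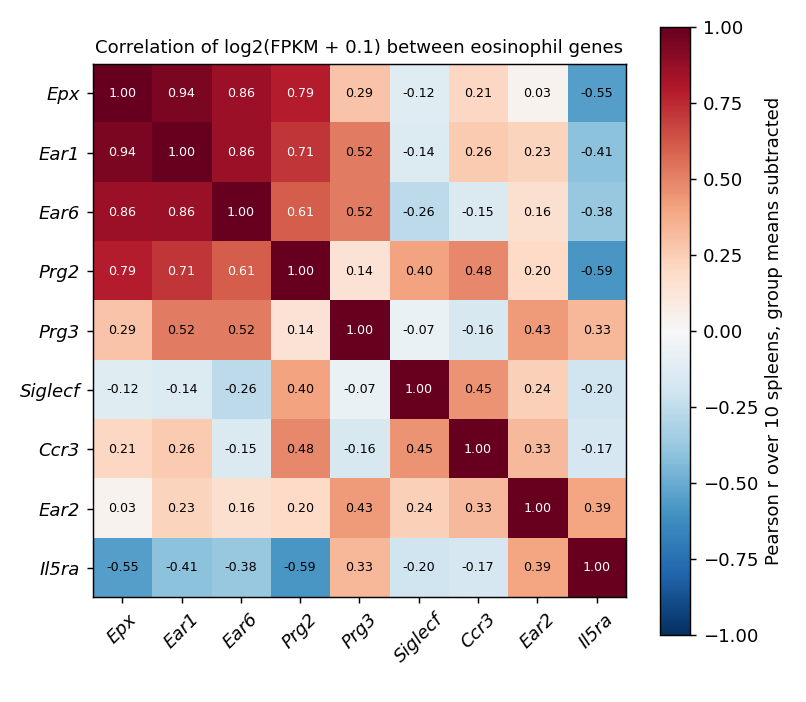
Pearson r of log2(FPKM + 0.1) between each pair of the 9 eosinophil genes over 10 spleens, with each group's mean subtracted, from -1 (blue) to 1 (red). Epx, Ear1, Ear6 and Prg2 form a block with r between 0.61 and 0.94, and Il5ra has r below 0 with each of those 4.

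By a fixed rule, the genes outside the list whose pattern was most like each member were sought among 15515 genes averaging 0.5 FPKM or more, by Pearson r over the 10 spleens with group means subtracted. Epx was most like Srm (r = 0.98), Taf6l (0.97) and Mrpl3 (0.97), and Ear1 was most like Cox8a, Sf3b6 and Taf6l (0.96 each). Il5ra was most like Neurl3 (0.99), Rhbdf2 (0.97) and Ezr (0.97). Ccr3 was most like Rab7b (0.93) and Mrc1 (0.92), Prg3 like Xaf1 (0.98), Prg2 like Gm37486 (0.95), Ear2 like Ppm1e (0.95), Ear6 like Spire2 (0.96) and Siglecf like Itpripl2 (0.94). These are the highest of 15515 values for each member, over 10 spleens, and are given as a description.

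Cells other than eosinophils also use some of these genes, and their markers were read in the same libraries. The summed FPKM of 4 B cell markers, Ms4a1, Cd79a, Cd79b and Pax5, was 518 to 991 in the mutants and 575 to 1299 in WT. Over the 10 spleens Il5ra had a positive r with it (r = 0.85, rho = 0.84, permutation p = 0.0019, adjusted p = 0.15 over 81 pairs of member and marker list). The r was 0.81 without the 2 farthest spleens and 0.91 with group means subtracted. Per 1000 FPKM of B cell markers, Il5ra ranged from 2.31 to 3.43 FPKM in the mutants and from 3.48 to 4.78 FPKM in WT, with means of 2.82 ± 0.44 and 4.06 ± 0.56. These ranges did not overlap (two-sided exact permutation p = 0.0079, the smallest that 5 against 5 allow), but they come close to touching: without Cd79b in the sum they overlapped (p = 0.024 by the same exact test). This ratio was chosen after the values were seen. For the 5 B-1 cell markers, Bhlhe41, Zbtb32, Cd5, Spn and Itgam, the r with Il5ra was -0.17 (rho = -0.18, permutation p = 0.65, adjusted p = 0.84). Spn and Cd5, with means of 34.9 and 17.3 FPKM, made up most of that sum, while Bhlhe41 and Zbtb32 averaged 1.58 and 1.75 FPKM. Spn is also on the list of non-classical monocyte markers, so this r cannot show whether Il5ra follows B-1 cells. With the sum of 6 markers of antibody-secreting cells, Il5ra had r = -0.05 (rho = 0.03, permutation p = 0.89, adjusted p = 0.95). Whether B cells carry the difference in Il5ra was not tested.

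Ear2 was set beside 9 markers of non-classical monocytes, whose sum lay between 171 and 219 FPKM in the mutants and between 137 and 171 FPKM in WT (r = 0.80, rho = 0.75, permutation p = 0.0058, adjusted p = 0.24). With group means subtracted the r was 0.59. Per 100 FPKM of these markers, Ear2 averaged 20.9 ± 2.8 FPKM in the mutants and 20.2 ± 1.3 FPKM in WT (two-sided exact permutation p = 0.65). This ratio was also chosen after the values were seen, and a p of that size does not show that the groups are equal. Of the 9 markers, 8 had a log2 fold change above 0, beside 10445 of the 21296 genes tested. At an unadjusted p under 0.05, 4 were higher in DUSP6 KO, beside 2.62% of all genes, and none was called. Only 1, Treml4, had all DUSP6 KO values above all WT values, beside 0.549% of all genes. These pairs of member and list were picked from the 81 after the values were seen, and none of the 81 passed an adjusted p of 0.05. Whether non-classical monocytes carry the difference in Ear2 was not tested.

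**Figure D5:**
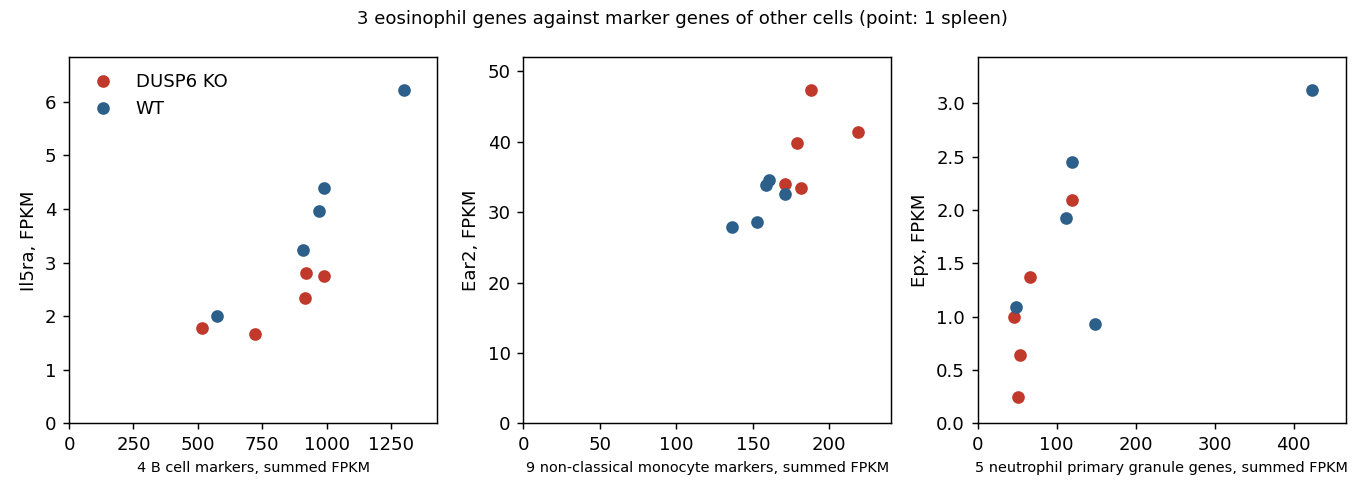
FPKM of Il5ra, Ear2 and Epx in the 10 spleens against the summed FPKM of markers of B cells, non-classical monocytes and neutrophil primary granules, with DUSP6 KO in red and WT in blue. At like B cell sums the DUSP6 KO points mostly lie below the WT points for Il5ra, the DUSP6 KO points mostly lie up and to the right of the WT points for Ear2, and WT 77 stands far to the right for the neutrophil genes.

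Markers of the granulocytes nearest to eosinophils were read as well. The 5 neutrophil primary granule genes, Elane, Mpo, Prtn3, Ctsg and Ms4a3, summed to between 46.4 and 119 FPKM in the mutants and between 49.2 and 423 FPKM in WT, and Epx had r = 0.70 with that sum (rho = 0.60, permutation p = 0.026, adjusted p = 0.43). All 7 basophil markers had a log2 fold change below 0, beside 10851 of the 21296 genes tested. The sum of these 7 lay between 6.75 and 11.5 FPKM in the mutants and between 17.5 and 43.9 FPKM in WT with no overlap. It was led by the basophil proteases Prss34 (log2 fold change -2.13, adjusted p = 0.19) and Mcpt8 (-1.67, adjusted p = 0.31). For 3 of the 7 genes, Prss34, Mcpt8 and Ms4a2, all DUSP6 KO values were below all WT values, beside 0.563% of all genes. The groups overlapped for Cpa3, Fcer1a, Cd200r3 and Gata2. Epx had r = 0.61 with the basophil sum (rho = 0.55, permutation p = 0.057, adjusted p = 0.44). Without the 2 spleens farthest from the median of Epx, r was 0.57 for the neutrophil sum and 0.32 for the basophil sum. Against the non-classical monocyte sum, Epx had r = -0.72 (rho = -0.43, permutation p = 0.021, adjusted p = 0.43), and -0.06 without those 2 spleens. The mast cell sum lay between 11.5 and 16.6 FPKM in the mutants and between 7.66 and 11.0 FPKM in WT, with Mcpt4 at a log2 fold change of 2.40 (adjusted p = 0.061); of its 7 genes, 4 were tested, 2 above 0 (Mcpt4 and Tpsb2) and 2 below (Cma1 at -0.06 and Kit at -0.07), and Tpsab1 was listed at 0 in all 5 WT spleens. No marker in these lists was called by the fit used here. The study's own test, DESeq2, did call Prss34 lower and Mcpt4 higher in DUSP6 KO. That test used the same spleens, and these lists were chosen with earlier results of the data known. The calls and the sums are therefore not independent of each other. Prg2 had r = 0.65 with the neutrophil sum (rho = 0.50, permutation p = 0.041, adjusted p = 0.43), and 0.64 without the 2 spleens farthest from its own median. Prg3 had r = 0.68 with 5 red pulp macrophage markers (rho = 0.49, permutation p = 0.032, adjusted p = 0.43). Without the 2 spleens farthest from the median of Prg3, that r was 0.008. The part of neutrophils, basophils, mast cells and macrophages in the values of Epx, Prg2 and Prg3 was not tested.

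Around the members, no gene of the pathway lists was called. Of 12 genes of the interleukin-5 receptor and its signalling, 5 had a log2 fold change above 0 and 7 below (median -0.06), none at an unadjusted p under 0.05. The common beta chain Csf2rb, the partner of Il5ra, ranged from 11.9 to 17.4 FPKM in the mutants and from 14.4 to 16.8 FPKM in WT (log2 fold change -0.15, SE 0.10, adjusted p = 0.96), and Csf2ra and the kinase Jak2 had log2 fold changes of -0.03 and -0.10. Interleukin-5 RNA itself was nearly absent: Il5 had 3 reads in WT 67 and 0 in the other 9 libraries. Il3 and Il25 were listed at 0 in all 10. Of 8 such cytokines 4 were tested, 2 with a log2 fold change above 0 (Csf2 at 0.44 and Tslp at 0.01) and 2 below. The value for Csf2 (SE 0.52, unadjusted p = 0.42) rested on 0 to 5 reads per library, too few to read as a rise. Il4 averaged 0.822 ± 0.249 FPKM in the mutants and 1.21 ± 0.21 FPKM in WT (log2 fold change -0.54, unadjusted p = 0.030, adjusted p = 0.80), and Il33, the alarmin that acts upstream of interleukin-5, had a log2 fold change of -0.25 (adjusted p = 0.95).

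Of the 4 chemokines on the list that bind CCR3, 3 had a log2 fold change above 0 (median 0.77), beside 10445 of the 21296 genes tested. Ccl24, eotaxin-2, measured 4.39, 2.94, 5.64, 4.10 and 3.40 FPKM in the mutants and 2.53, 4.61, 1.57, 1.53 and 2.24 FPKM in WT (log2 fold change 0.77, SE 0.29, unadjusted p = 0.022, adjusted p = 0.79). Each DUSP6 KO spleen exceeded every WT spleen but WT 67. Ccl11, eotaxin-1, had a log2 fold change of 0.76 on 3 to 32 reads (adjusted p = 0.94), and Ccl7 had 7, 2, 2, 6 and 1 reads in DUSP6 KO against a single read in WT 73 (adjusted p = 0.50). DUSP6 KO 03 and WT 73 tied at 1 read. Ccl5, the most abundant of the 4 in spleen, had -0.16 (adjusted p = 0.99).

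Among 11 transcription factors of eosinophil development, 4 had a log2 fold change above 0 and 7 below, with none called. Gata1, the factor that commits progenitors to eosinophils and also drives red cells, ranged from 13.1 to 83.4 FPKM in the mutants and from 13.4 to 65.4 FPKM in WT, lowest in DUSP6 KO 21 and highest in DUSP6 KO 73, as Hba-a1 was (log2 fold change 0.16, adjusted p = 0.99). Xbp1, needed for survival of eosinophil progenitors and for antibody secretion, had -0.50 (SE 0.15, unadjusted p = 0.0056, adjusted p = 0.56). Cebpe, required for granules of neutrophils and eosinophils, had -1.22 (SE 0.52, unadjusted p = 0.040, adjusted p = 0.84), with WT 77 at 17.9 FPKM and the other 9 spleens at 1.26 to 6.03 FPKM. Of 8 tested among 10 further genes that eosinophils express, 7 had a log2 fold change below 0, beside 10851 of the 21296 genes tested. Adgre1, which codes for F4/80 and is far more abundant in red pulp macrophages, was the exception, at 0.38 (unadjusted p = 0.0074, adjusted p = 0.59). Of the 7 below 0, only 1 had an unadjusted p under 0.05, Cd244a at -0.38 (unadjusted p = 0.020, adjusted p = 0.77).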

How the data were processed

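RNA of 10 spleens, 1 per mouse, was sequenced from poly-A selected paired-end libraries. The FPKM values and gene lengths that the authors deposited came from Hisat2 alignments and featureCounts 1.5.0-p3 counts. The labels name a human build, but 98.11% of the 54532 genes have the coordinates of mouse GENCODE M21 (GRCm38), used here. Whether counting used strand is not given in the sources used here. FPKM times length was a whole multiple of 1 step in each library, which gave the reads. The share of values that passed was 100%, at a tolerance of 0.001 reads that was widened in proportion for large counts. For the most abundant genes the check is therefore weak. The depth so implied was 0.949 to 1.12 times the total of the listed genes, for a reason not stated.

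Groups were compared in R 4.3.3 with limma 3.58.1, which fitted log2(FPKM + 0.1) with a trended eBayes step for the 21296 genes averaging 0.1 FPKM or more over all 10 libraries, with Benjamini-Hochberg adjustment at 0.05. It was tested on simulated reads in which every gene had the same spread beyond counting. That test does not cover members as variable as Ear6. The study's own test, DESeq2, was not repeated. Single values were compared by exact permutation, and correlations by 100000 permutations on log2(FPKM + 0.1), in Python 3.11.15. Labels do not say that mice of a group came from separate litters or cages, so p-values measure the spread between these samples. Over 20 pairs of replicates, the chi-square per gene was 14.7 to 169, so none is a copy of another. The members and all lists were chosen with earlier results of these data known. The genes named are the 9 members, genes of the lists, and, for each member, the 5 other genes most correlated with it. Identities came from global alignments of coding and upstream sequences. Alternatives were pseudocounts of 1 and 0.01, a minimum of 1 FPKM and no filter, other eBayes settings, array weights, quantile normalization, median centring, voom on the reads, the Ear family as 1 value, and each library left out. Set after seeing the data were FPKM over the total of listed reads, correlations without DUSP6 KO 21, and B cell sums without each marker. A marker gene was left out of the lists and is not reported here.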

Additional observations from a re-analysis of the deposited data

Results flagged for a closer look

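Of 42 groups of 5 values examined, 6 held a sample whose gap to its nearest neighbour exceeded 0.71 of the group's range, where chance gives about 1 in 20. Ccr3 was at 21.5 FPKM in WT 83, above the other 4 WT spleens. The neutrophil primary granule sum was 119 FPKM in DUSP6 KO 73, above its group. WT 77 stood above the other WT spleens for 3 sums: 423 FPKM for neutrophil primary granule genes, 43.9 FPKM for basophil markers and 319 FPKM for classical monocyte markers. WT 77 also had the highest Epx of the 10 spleens, at 3.12 FPKM. The largest WT library was WT 67, with 18422147 reads.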

How the results depend on the processing

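No member was called under any alternative, and the lowest adjusted p was 0.45, for Il5ra without WT 77. Epx, Il5ra, Ear2, Ccr3 and Siglecf kept the sign of their log2 fold change throughout. With 1 library left out, it was -1.19 to -0.52 for Epx, -0.93 to -0.54 for Il5ra, 0.24 to 0.36 for Ear2, -0.25 to -0.09 for Ccr3, -0.46 to -0.06 for Siglecf, -0.30 to 0.16 for Prg2, -0.10 to 0.18 for Prg3, -0.62 to 0.14 for Ear1 and -0.46 to 0.67 for Ear6. Prg3 turned to -0.022 with array weights and -0.024 with voom, and Ear6 to 0.15 with a pseudocount of 1, 0.062 with array weights and 0.010 with median centring; the cause was not tested. Over all genes, 15 were called, 8 higher and 7 lower. A minimum of 1 FPKM gave 4 lower and array weights 13 higher. With 1 library left out, 12 to 32 were called, 6 to 20 higher and 5 to 12 lower, each highest without DUSP6 KO 21. The count of called pairs of members, 1, became 0 with a pseudocount of 1, 0 over the total of listed reads and 0 without DUSP6 KO 21, and 3 with group means subtracted and 3 without the 2 farthest spleens. No paired analysis was possible because the labels pair no DUSP6 KO mouse with a WT mouse. Replicate number 73 occurs in both groups but is not given as a pair. Depth limits Ear1, Ear6, Epx and Siglecf, which had 3 to 142 reads in a library.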
